A study of Arabidopsis thaliana with 10 samples.

Results

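The 37 genes described here, of 32548 in each deposited table, are genes of Arabidopsis thaliana that make salicylic acid, relay its signal or respond to it. They were taken by gene identifier from a list drawn up with results of these same libraries known, both for the mutants and for the replicate libraries, so counts of members that passed a threshold describe the list and carry no further weight. The libraries came from whole seedlings of 10 days, grown on MS plates at 23°C with 16 h of light and 8 h of dark. There were 5 genotypes with 2 libraries each, numbered replicate 1 and 2 in the labels. The wild type was Col-0, and the mutants were fld, ld, efl2 efl4 (labelled elf2/4) and sdg26 aprf1, all homozygous in the Col-0 background. The fld, ld, sdg26 and aprf1-9 alleles are T-DNA insertions, and efl2 and efl4 were made by CRISPR/Cas9. Each genotype is one allele combination, efl2 efl4 and sdg26 aprf1 are double mutants, and the same pair of Col-0 libraries served as control for all 4 mutants. FLD, LD, SDG26, EFL2, EFL4 and APRF1 belong to the autonomous pathway of flowering and repress the floral repressor gene FLC, and the comparisons below ask what became of the salicylic acid genes in their mutants.

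Salicylic acid is the plant hormone of defence against pathogens that feed on living cells. Most of it is made in the chloroplast from isochorismate, which is carried to the cytosol, joined to glutamate and broken down to the free acid. NPR1 then acts as a coactivator with TGA factors at defence promoters, NPR3 and NPR4 act as corepressors that the hormone relieves, and WRKY factors tune the response, whose standard readout is the secreted protein PR1. In these seedlings, which the labels give no pathogen treatment, the genes are expressed at widely different levels. Per kilobase of exon, the mean over the 10 libraries ran from 3.14 normalized reads for WRKY62 to 5640.0 for EARLI1. WRKY70 had 1165 and ACD6 1430.0 normalized reads per kilobase, against 74.4 for PR1 and 13.6 for AT1G13470.

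The 10 libraries held 20455413 to 20768023 reads on genes, with 23207 to 23570 genes detected. Each mutated gene was lower in both of its mutant libraries than in both Col-0 libraries, at 9.07% of the Col-0 level for FLD, 56.9% for LD, 70.2% for EFL2, 76.2% for EFL4, 18.0% for SDG26 and 58.6% for APRF1. Markers of green tissue and of roots were present in every library, and none of these markers, nor of the jasmonate, rapid stress and clock lists, passed a log2 fold change of 1 with an unadjusted P under 0.01 in any mutant. At an adjusted p of 0.05 in the limma fit that adds a replicate block, the clock gene LHY was lower in fld and ld, at -0.65 and -0.64 on the log2 scale, the green tissue gene LHCB1.1 was higher in both, at 0.37 and 0.51, and the jasmonate gene VSP2 was higher in fld, at 0.21. Their part in the results below was not tested. Levels below are normalized reads on a scale common to the 10 libraries, replicate 1 before replicate 2 where a pair is given. Fold changes are differences of log2(normalized reads + 1) between 2 mutant and 2 Col-0 libraries, given with their standard error. Unless called blocked, that standard error is from the fit without the replicate block. It therefore also holds any difference between replicates 1 and 2 that the genotypes share. In whole seedlings, fewer cells that express a gene and less of its RNA per cell cannot be told apart.

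The members called in more than 1 mutant were ANK, AT1G13470 and, in fld and ld, PR1. The ankyrin repeat gene ANK and AT1G13470, which encodes a protein of unknown function with a DUF1262 domain, were lower in all 8 mutant libraries than in both Col-0 libraries. A gene was called where its log2 fold change was at least 1 in size with an unadjusted P under 0.01, the study's thresholds, here with limma. Of the 36 members tested in fld, 3 were called lower (PR1, ANK and AT1G13470) and 0 higher, where 0.175% of all genes tested were called lower and 0.219% higher. Of the 36 tested in ld, 4 were called lower (PR1, PR2, ANK and AT1G13470) and 0 higher, with 0.245% and 0.26% of all genes. Of the 35 tested in efl2 efl4, 2 were called lower (ANK and AT1G13470) and 0 higher, with 0.22% and 0.215% of all genes. Of the 35 tested in sdg26 aprf1, the same 2 were called lower and 0 higher, with 0.105% and 0.394% of all genes. By limma without a replicate term, 0 members passed an adjusted p of 0.05 in any mutant, where 0.00997% (fld), 0.00499% (ld), 0.00499% (efl2 efl4) and 0% (sdg26 aprf1) of all genes did, and the members with an unadjusted p under 0.05 numbered 6 in fld, 8 in ld, 7 in sdg26 aprf1 and 9 in efl2 efl4, where 3.79%, 4.26%, 4.56% and 4.69% of all genes had one. Libraries of the mutant and of Col-0 did not overlap for 10 members lower and 2 higher in fld (14.7% and 14.6% of all genes), for 14 and 3 in ld (15.2% and 14.9%), for 10 and 5 in efl2 efl4 (15.5% and 16.1%) and for 9 and 3 in sdg26 aprf1 (15.4% and 14.8%). The counts of members called in efl2 efl4 and sdg26 aprf1 changed when 1 library was left out. The share of all genes called in those fits is not given here.

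The replicate numbers paired the libraries across genotypes, and with the replicate number as a block, which leaves 1 residual degree of freedom, more members were called at the same thresholds. The members called lower were then 4 in fld (PBS3 was added), 7 in ld (PBS3, AED1 and PNP-A were added) and 6 in efl2 efl4 (PBS3, ACD6, AED1 and PNP-A were added). WRKY46 was called higher in efl2 efl4 and WRKY18 in sdg26 aprf1 in the blocked fit, and the members called without the block were called in it too. The share of all genes called in the blocked fit, in either direction, was 0.658% for fld (0.314% lower, 0.344% higher), 0.864% for ld (0.434%, 0.429%), 0.698% for sdg26 aprf1 (0.154%, 0.543%) and 0.844% for efl2 efl4 (0.499%, 0.345%). At an adjusted p of 0.05 in the blocked limma fit, chosen after seeing the data, 14 members passed in efl2 efl4, 12 in ld, 5 in fld and 0 in sdg26 aprf1, where 2.86%, 3.38%, 2.25% and 0.0399% of all genes did. The 14 divided into 8 lower and 6 higher (1.16% and 1.7% of all genes), the 12 into 8 and 4 (1.2% and 2.17%), and the 5 were all lower (0.908% lower and 1.35% higher). The members higher in efl2 efl4 in that fit were SARD1, NPR3, WRKY70, WRKY46, WRKY18 and EARLI1. Those lower there were PBS3, ACD6, PR2, ANK, AT1G13470, AED1, WAK1 and DMR6. In ld, CBP60G, NPR3, WRKY70 and EARLI1 were higher. Lower in ld were PBS3, ACD6, PR1, PR2, ANK, AT1G13470, AED1 and WAK1. Lower in fld were PBS3, ACD6, PR1, ANK and AT1G13470.

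**Figure D1:**
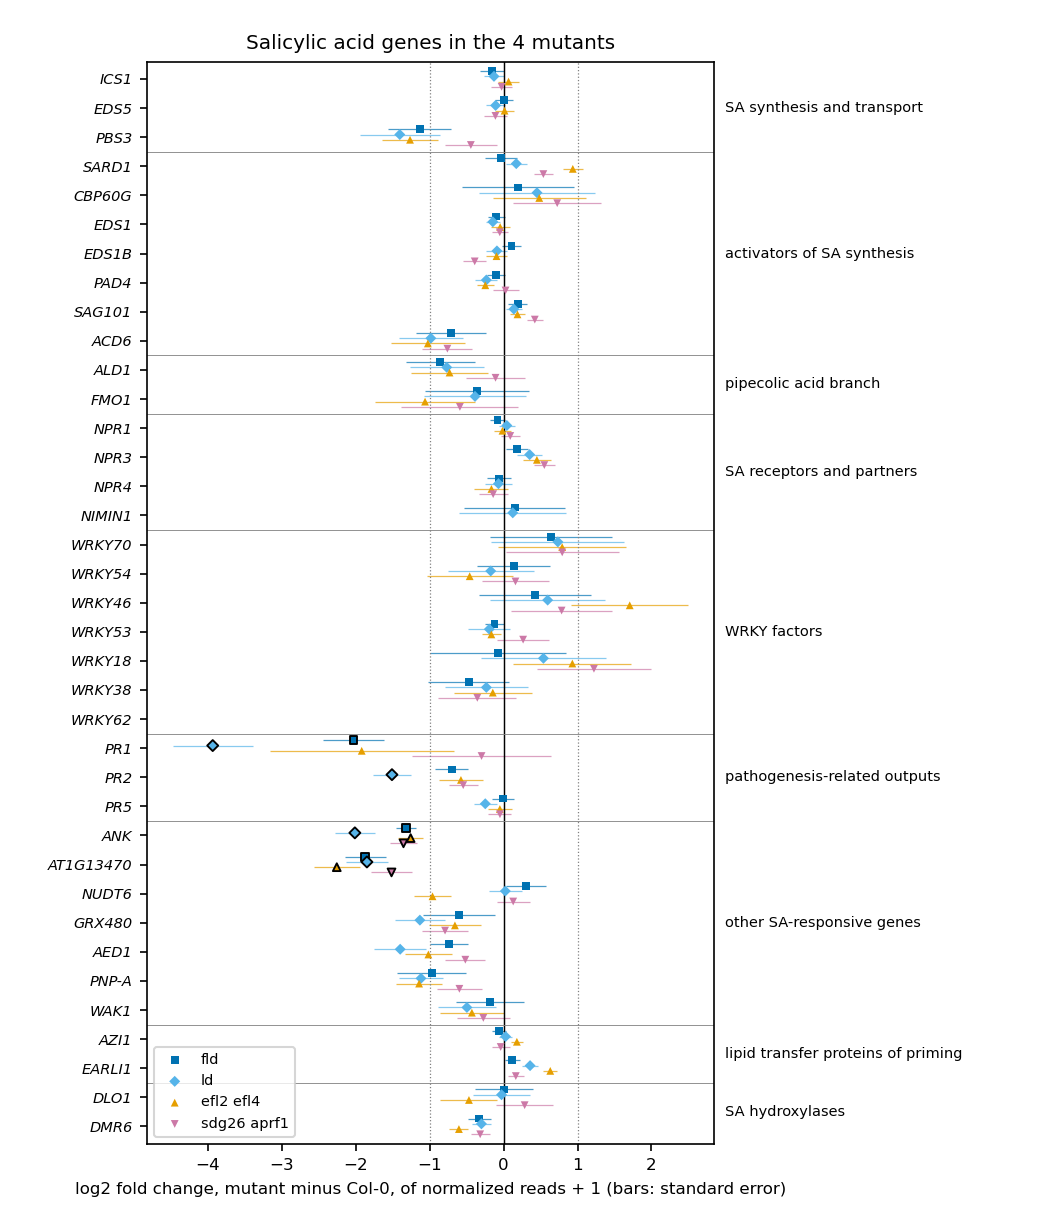
Log2 fold change of the salicylic acid genes tested in the 4 mutants against Col-0, on the log2(normalized reads + 1) scale, with standard errors (2 libraries a genotype) and grouped by role; black outlines mark calls without the replicate block, dotted lines mark a change of 1, and WRKY62 in all 4 mutants and NIMIN1 in efl2 efl4 and sdg26 aprf1 are not drawn because they had too few reads. ANK and AT1G13470 sit left of -1 in all 4 mutants, and PR1 reaches -3.94 in ld.

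The bases upstream of the annotated starts of 4 genes that the results turn on are shown because WRKY and TGA factors act on defence promoters. They were read from the TAIR10.1 genome, the 250 bases before each start, 5′ to 3′ on the gene's strand. Capitals mark the W-box core TTGAC or the TGA-factor motif TGACG on either strand (GTCAA and CGTCA on the other), and TTGACG counts as a match of both. ANK and AT1G13470 are the pair that was called lower in all 4 mutants, and WRKY70 and WRKY18 moved in opposite directions between the replicate sets described below.
ANK (chr5:22186634-22186883, minus strand): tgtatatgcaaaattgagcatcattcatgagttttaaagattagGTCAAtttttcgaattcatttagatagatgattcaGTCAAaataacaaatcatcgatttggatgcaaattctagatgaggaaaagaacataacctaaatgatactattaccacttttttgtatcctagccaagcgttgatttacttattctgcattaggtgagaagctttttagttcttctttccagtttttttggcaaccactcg
AT1G13470 (chr1:4621586-4621835, minus strand): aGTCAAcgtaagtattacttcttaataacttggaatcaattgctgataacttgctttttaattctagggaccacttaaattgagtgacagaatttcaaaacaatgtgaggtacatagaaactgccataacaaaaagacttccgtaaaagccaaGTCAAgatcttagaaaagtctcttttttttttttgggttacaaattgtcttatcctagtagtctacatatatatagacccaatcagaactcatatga
WRKY70 (chr3:20910624-20910873, minus strand): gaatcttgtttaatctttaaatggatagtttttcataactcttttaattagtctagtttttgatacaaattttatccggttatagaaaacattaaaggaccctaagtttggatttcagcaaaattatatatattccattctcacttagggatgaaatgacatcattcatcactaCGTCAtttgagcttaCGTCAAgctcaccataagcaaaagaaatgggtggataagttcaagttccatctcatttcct
WRKY18 (chr4:15382527-15382776, plus strand): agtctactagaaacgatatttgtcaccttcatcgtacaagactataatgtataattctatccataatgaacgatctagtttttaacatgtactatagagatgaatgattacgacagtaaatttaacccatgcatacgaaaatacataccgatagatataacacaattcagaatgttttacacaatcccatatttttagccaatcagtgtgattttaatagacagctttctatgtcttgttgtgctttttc
ANK and AT1G13470 each held 2 W-box cores and no TGACG, WRKY70 held 1 core and 2 TGACG motifs (one of which overlaps the core) and WRKY18 held neither. Over the 37 members, 20 (54.1%) held TTGAC and 8 (21.6%) held TGACG, and among the 27443 upstream regions of that length the shares were 44.9% and 18.6%. The rapid stress response element CGCGTT, on either strand, was found in 0 of the 37 regions and in 2.59% of all. These matches are descriptions of the letters in the window.

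Among the outputs, PR1 (AT2G14610, chr2:6241640-6242541) had the widest spread between libraries. It had 159.9 and 73.1 reads (normalized) in Col-0, 22.9 and 29.0 in fld, 4.04 and 9.17 in ld, 33.2 and 228 in sdg26 aprf1 and 6.97 and 104 in efl2 efl4. Both fld and both ld libraries lay under both Col-0 libraries, while replicate 2 of efl2 efl4 lay between the Col-0 libraries and replicate 2 of sdg26 aprf1 lay above them. The log2 fold changes of PR1 were -2.03 ± 0.42 in fld, -3.94 ± 0.54 in ld, -0.30 ± 0.94 in sdg26 aprf1 and -1.92 ± 1.24 in efl2 efl4, so that the value in efl2 efl4 and sdg26 aprf1 came with a standard error near or above 1. The value in sdg26 aprf1 changed sign with the setting, at 0.17 by edgeR, 0.17 by DESeq2, 0.26 without Col-0 replicate 1 and 1.07 without sdg26 aprf1 replicate 1. The sdg26 aprf1 replicate 2 library also had the highest level of PDF1.2A, a defensin of the jasmonate and ethylene response, at 488 normalized reads against 54.8 to 121.5 in the other 9 libraries, and its part in the PR1 value was not tested.

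PR2 (AT3G57260), a beta-1,3-glucanase, had 269 and 193 reads (normalized) in Col-0, 125 and 156 in fld, 93.8 and 67.2 in ld, 154 and 157 in sdg26 aprf1 and 195 and 119 in efl2 efl4. The fld, ld and sdg26 aprf1 libraries all lay below both Col-0 libraries, and 1 efl2 efl4 library lay between them. Its log2 fold changes were -0.70 ± 0.22 in fld, -1.51 ± 0.25 in ld, -0.55 ± 0.20 in sdg26 aprf1 and -0.58 ± 0.30 in efl2 efl4. PR5 (AT1G75040), a thaumatin-like protein, was nearly level, with 139.9 and 122 reads (normalized) in Col-0, 124 and 135 in fld, 106 and 114 in ld, 131 and 121 in sdg26 aprf1 and 120.5 and 132 in efl2 efl4 and log2 fold changes of -0.01 in fld, -0.25 in ld, -0.05 in sdg26 aprf1 and -0.05 in efl2 efl4. The ld libraries lay below both Col-0 libraries and those of the other mutants overlapped them.

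ANK (AT5G54610, chr5:22184545-22186633) had 274 and 305 reads (normalized) in Col-0, 120.3 and 110.1 in fld, 91.8 and 55.0 in ld, 129.9 and 97.3 in sdg26 aprf1 and 109 and 134 in efl2 efl4. The 8 mutant libraries lay between 55.0 and 134.3 and the Col-0 libraries at 274 and 305, so the groups did not overlap in any mutant. Its log2 fold changes were -1.32 ± 0.13 in fld, -2.01 ± 0.27 in ld, -1.35 ± 0.19 in sdg26 aprf1 and -1.26 ± 0.17 in efl2 efl4. AT1G13470 (chr1:4620101-4621585) had 54.0 and 39.5 reads (normalized) in Col-0, 12.9 and 11.0 in fld, 13.1 and 11.2 in ld, 16.1 and 14.9 in sdg26 aprf1 and 7.97 and 9.95 in efl2 efl4. All 8 mutant libraries were at 16.1 normalized reads or less and did not overlap Col-0, with log2 fold changes of -1.87 ± 0.28 in fld, -1.85 ± 0.28 in ld, -1.52 ± 0.27 in sdg26 aprf1 and -2.26 ± 0.31 in efl2 efl4. Its reads in the mutants were few, and its values rest on that depth. ANK overlaps the neighbouring gene AT5G54600 by 66 bases on the opposite strand, and whether the counting used strand is not given in the sources used here. Of the 37 members, 5 were below both Col-0 libraries in all 8 mutant libraries (ANK, AT1G13470, AED1, PNP-A and DMR6), where 2.69% of all genes were. The gene above both in all 8 was SAG101, where 3.02% of all genes were.

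**Figure D2:**
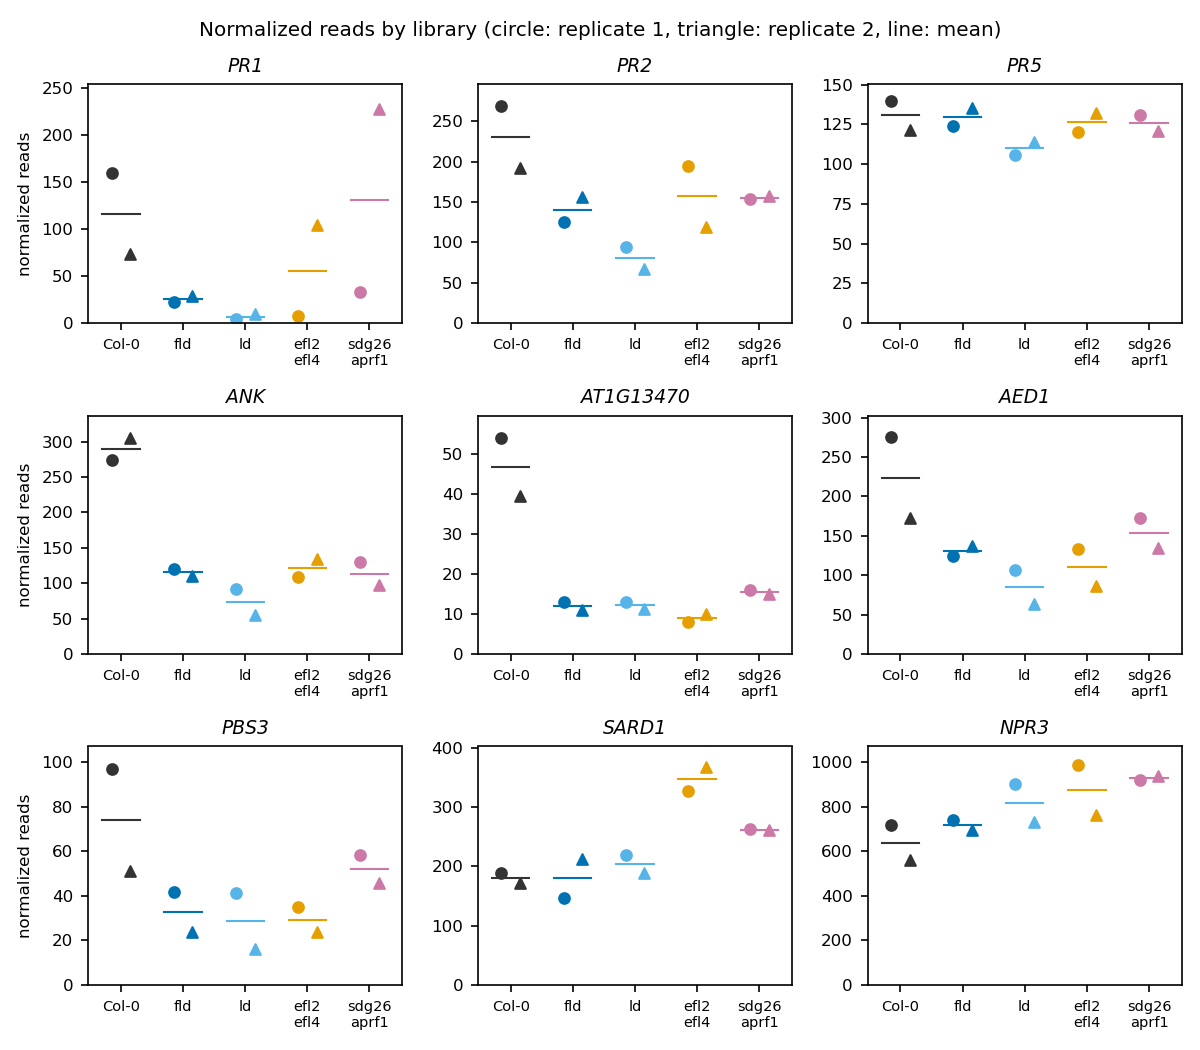
Normalized reads (y axis, linear from 0) of 9 salicylic acid genes in each of the 10 libraries by genotype, with circles for replicate 1, triangles for replicate 2 and a line at the mean of the 2 libraries. ANK and AT1G13470 are lower in all 8 mutant libraries than in both Col-0 libraries, PR5 is nearly level, and PR1 is spread over 4.04 to 228 normalized reads.

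None of the other responsive genes was called without the block. AED1, an aspartyl protease of systemic acquired resistance, had 275 and 173 reads (normalized) in Col-0, 124 and 137 in fld, 107 and 63.2 in ld, 172 and 134 in sdg26 aprf1 and 133 and 86.6 in efl2 efl4. All 8 mutant libraries lay below both Col-0 libraries, with log2 fold changes of -0.74 ± 0.25 in fld, -1.40 ± 0.35 in ld, -0.52 ± 0.27 in sdg26 aprf1 and -1.02 ± 0.32 in efl2 efl4, and AED1 was called in ld and efl2 efl4 with the block and in none without it. PNP-A, a plant natriuretic peptide, had log2 fold changes of -0.97 in fld, -1.12 in ld, -0.60 in sdg26 aprf1 and -1.14 in efl2 efl4, from 7.95 to 28.0 normalized reads. DMR6, which hydroxylates salicylic acid, had log2 fold changes of -0.33 in fld, -0.30 in ld, -0.32 in sdg26 aprf1 and -0.60 in efl2 efl4 and DLO1, the other hydroxylase, 0.00 in fld, -0.03 in ld, 0.28 in sdg26 aprf1 and -0.47 in efl2 efl4. GRX480, a glutaredoxin that binds TGA factors, had 7.13 to 21.7 normalized reads and log2 fold changes of -0.60 in fld, -1.13 in ld, -0.79 in sdg26 aprf1 and -0.66 in efl2 efl4. NUDT6, a Nudix hydrolase, had 23.9 and 25.9 normalized reads in efl2 efl4 and 43.0 to 73.1 in the other libraries, a log2 fold change of -0.96 ± 0.25 there against 0.30 ± 0.27 in fld. WAK1, a wall-associated receptor kinase, had log2 fold changes of -0.19 in fld, -0.50 in ld, -0.27 in sdg26 aprf1 and -0.43 in efl2 efl4. Of the lipid transfer proteins of priming, AZI1 had log2 fold changes of -0.06 in fld, 0.03 in ld, -0.04 in sdg26 aprf1 and 0.18 in efl2 efl4 and its neighbour EARLI1 0.12 in fld, 0.36 in ld, 0.16 in sdg26 aprf1 and 0.63 in efl2 efl4.

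None of the genes of synthesis and transport was called without the block. ICS1, the isochorismate synthase that starts pathogen-induced salicylic acid synthesis, had 272 and 228 reads (normalized) in Col-0, 246 and 204 in fld, 227 and 229 in ld, 238 and 251 in sdg26 aprf1 and 265 and 259 in efl2 efl4, with log2 fold changes of -0.15 in fld, -0.13 in ld, -0.03 in sdg26 aprf1 and 0.07 in efl2 efl4. EDS5, the exporter of isochorismate, ranged from 160.1 to 198 normalized reads and had log2 fold changes of 0.00 in fld, -0.11 in ld, -0.11 in sdg26 aprf1 and 0.01 in efl2 efl4. PBS3, which joins isochorismate to glutamate, had 97.0 and 51.4 reads (normalized) in Col-0, 41.7 and 24.0 in fld, 41.4 and 16.3 in ld, 58.4 and 45.7 in sdg26 aprf1 and 34.9 and 23.9 in efl2 efl4. Its fld, ld and efl2 efl4 libraries lay below both Col-0 libraries, its sdg26 aprf1 libraries overlapped them, and its log2 fold changes were -1.13 ± 0.43 in fld, -1.40 ± 0.54 in ld, -0.44 ± 0.35 in sdg26 aprf1 and -1.27 ± 0.38 in efl2 efl4. The blocked fit called PBS3 in fld, ld and efl2 efl4, and the fit without the block called it in none.

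None of the activators of synthesis was called without the block, and their values lay on both sides of Col-0. SARD1, a transcription factor that binds the ICS1 promoter, had 189 and 172 reads (normalized) in Col-0, 146 and 213 in fld, 219.9 and 188 in ld, 263 and 261 in sdg26 aprf1 and 327 and 368 in efl2 efl4. Both efl2 efl4 and both sdg26 aprf1 libraries lay above both Col-0 libraries, and the log2 fold changes were -0.03 ± 0.22 in fld, 0.17 ± 0.14 in ld, 0.54 ± 0.13 in sdg26 aprf1 and 0.94 ± 0.14 in efl2 efl4, none of which passed the thresholds in either fit. Its calmodulin-binding relative CBP60G had log2 fold changes of 0.20 in fld, 0.45 in ld, 0.72 in sdg26 aprf1 and 0.48 in efl2 efl4, with the replicates of every genotype apart as given below. ACD6, an ankyrin membrane protein that feeds salicylic acid signalling forward, had 4889 and 9574 reads (normalized) in Col-0, 2890.3 and 6033 in fld, 2559.6 and 4698 in ld, 3514 and 4636 in sdg26 aprf1 and 2209.8 and 5148 in efl2 efl4 and log2 fold changes of -0.71 ± 0.47 in fld, -0.98 ± 0.43 in ld, -0.76 ± 0.34 in sdg26 aprf1 and -1.02 ± 0.50 in efl2 efl4. The blocked fit called ACD6 in efl2 efl4 at these thresholds. At an adjusted p of 0.05 in that fit, ACD6 passed as lower in fld, ld and efl2 efl4. Its blocked standard error was 0.0462 in fld and 0.0485 in ld, where the change was under 1 in size. The lipase-like regulators EDS1 and PAD4 had log2 fold changes of -0.10 in fld, -0.15 in ld, -0.05 in sdg26 aprf1 and -0.05 in efl2 efl4 and of -0.10 in fld, -0.23 in ld, 0.03 in sdg26 aprf1 and -0.25 in efl2 efl4. EDS1B, the tandem copy of EDS1, had log2 fold changes of 0.11 in fld, -0.09 in ld, -0.39 in sdg26 aprf1 and -0.10 in efl2 efl4, and SAG101, another partner of EDS1, 0.19 in fld, 0.14 in ld, 0.42 in sdg26 aprf1 and 0.19 in efl2 efl4. The branch that makes N-hydroxypipecolic acid was low, with ALD1 at 4.98 to 17.0 and FMO1 at 9.06 to 47.0 normalized reads.

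None of the receptors was called, with or without the block at these thresholds. NPR1 had 664 and 757 reads (normalized) in Col-0, 659 and 682 in fld, 729 and 736 in ld, 812 and 700.2 in sdg26 aprf1 and 739 and 669.6 in efl2 efl4 and log2 fold changes of -0.08 in fld, 0.04 in ld, 0.09 in sdg26 aprf1 and -0.02 in efl2 efl4. NPR3 had log2 fold changes of 0.18 in fld, 0.35 in ld, 0.55 in sdg26 aprf1 and 0.45 in efl2 efl4 and NPR4 -0.06 in fld, -0.07 in ld, -0.14 in sdg26 aprf1 and -0.16 in efl2 efl4, and NIMIN1, a partner that restrains PR1, had at most 20 normalized reads, too few for the common-scale tests. Among the WRKY factors, WRKY46 had log2 fold changes of 0.42 ± 0.76 in fld, 0.60 ± 0.78 in ld, 0.78 ± 0.69 in sdg26 aprf1 and 1.71 ± 0.79 in efl2 efl4, WRKY70 of 0.64 in fld, 0.73 in ld, 0.79 in sdg26 aprf1 and 0.79 in efl2 efl4, WRKY18 of -0.07 in fld, 0.54 in ld, 1.22 in sdg26 aprf1 and 0.93 in efl2 efl4 and WRKY54 of 0.14 in fld, -0.17 in ld, 0.16 in sdg26 aprf1 and -0.46 in efl2 efl4. WRKY53 had log2 fold changes of -0.12 in fld, -0.19 in ld, 0.26 in sdg26 aprf1 and -0.17 in efl2 efl4 and WRKY38, a negative regulator, -0.47 in fld, -0.23 in ld, -0.36 in sdg26 aprf1 and -0.15 in efl2 efl4, while WRKY62 had 0 to 6.95 normalized reads. The sign of several of these values changed when 1 library was left out, in fits without a replicate term. Leaving out 1 Col-0 library sets both replicates of a mutant against 1 replicate of Col-0, and these genes differed between replicates. With the replicate block the standard error of WRKY46 was 0.22 in fld and 0.21 in ld, against 0.76 and 0.78 without it. WRKY70 had 2275 and 439.6 normalized reads in Col-0. In both replicates it was higher in ld (2737 and 1017) and efl2 efl4 (2776 and 1088). In fld and sdg26 aprf1 it was higher in replicate 2 only. CBP60G was higher than Col-0 in both replicates of every mutant. Without Col-0 replicate 2, WRKY70 had log2 fold changes of -0.54 in fld, -0.45 in ld, -0.39 in sdg26 aprf1 and -0.39 in efl2 efl4, and CBP60G had -0.69, -0.43, -0.16 and -0.40 in that order. Without the same library WRKY46 had -0.56 in fld, -0.39 in ld and -0.20 in sdg26 aprf1, WRKY54 had -0.51 in fld and -0.49 in sdg26 aprf1, and WRKY18 had 1.02 in fld. Without Col-0 replicate 1, WRKY18 had -0.55 in ld and -0.16 in efl2 efl4, and WRKY54 had 0.47 in ld and 0.19 in efl2 efl4. The members with a negative log2 fold change numbered 24 of 36 in both fld and ld, 21 of 35 in sdg26 aprf1 and 24 of 35 in efl2 efl4. The medians over the members tested were -0.09 for fld, -0.16 for ld, -0.05 for sdg26 aprf1 and -0.17 for efl2 efl4, where the medians over all genes tested were 0.0004, 0.0007, -0.0024 and -0.0022.

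A test of any difference among the 4 mutants called 0 of the 34 members tested, where 0.0948% of all genes passed an adjusted p of 0.05 by limma, and 5 members had an unadjusted p under 0.05, where 6.06% of all genes did. With DESeq2 the count was 1. With the replicate block it was 5, namely SARD1, WRKY46, WRKY18, NUDT6 and EARLI1, where 2.53% of all genes passed. In each of these 5 the levels in efl2 efl4 or sdg26 aprf1 stood farthest from those in fld. The share of all genes passing for which this held was not taken.

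The 37 genes were also compared between the replicate sets, that is, between the 5 libraries numbered 1 and the 5 numbered 2, one of each genotype. The labels do not say what a replicate number marks. The WRKY factors WRKY46, WRKY70 and WRKY54, with CBP60G and NPR4, were lower in every library of set 2 than in every library of set 1, and WRKY18 and WAK1 were higher in every library of set 2. In a limma fit with genotype and replicate number, 13 of the 34 members tested passed an adjusted p of 0.05, 9 lower in set 2 and 4 higher. Over all genes tested, 15.6% were lower and 13.4% higher, 29% in either direction. The 9 lower were PBS3, CBP60G, PAD4, NPR3, NPR4, WRKY70, WRKY54, WRKY46 and AED1, and the 4 higher were EDS1, ACD6, WRKY18 and WAK1. A count test, edgeR's quasi-likelihood test on the reads recovered, also passed 13, where 15.5% of all genes were lower and 13.7% higher (29.3% in either direction). Groups of 5 libraries did not overlap for 5 members lower and 2 higher in set 2, where 9.07% and 7.42% of all genes did not (16.5% in all). The set difference went the same way in all 5 genotypes for 7 members lower and 5 higher, where 19.1% and 17.3% of all genes did so (36.3% in all). A mean difference of at least 1 on the log2 scale was seen for 3 members lower and 2 higher, where 0.938% and 0.554% of all genes had one (1.49% in all). With 5 pairs of libraries an exact sign-flip test of a single gene cannot go below a two-sided p of 0.0625.

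Of the members, WRKY46 had the largest drop in set 2. In set 1 it had 119 reads (normalized) in Col-0, 119 in fld, 141 in ld, 136 in sdg26 aprf1 and 331 in efl2 efl4, and in set 2 29.6 reads (normalized) in Col-0, 54.0 in fld, 58.1 in ld, 78.5 in sdg26 aprf1 and 117 in efl2 efl4. Each genotype was lower in set 2 and the sets did not overlap, at a log2 difference of -1.33 ± 0.15. WRKY70, a factor at the crossing of salicylic acid and jasmonate responses, had 2275 reads (normalized) in Col-0, 2136 in fld, 2737 in ld, 2026 in sdg26 aprf1 and 2776 in efl2 efl4 in set 1 and 439.6 reads (normalized) in Col-0, 1141 in fld, 1017 in ld, 1483 in sdg26 aprf1 and 1088 in efl2 efl4 in set 2, a log2 difference of -1.30 ± 0.21. Its Col-0 library in set 2 was the lowest of the 10. WRKY54, a relative of WRKY70, had 186 reads (normalized) in Col-0, 166 in fld, 158 in ld, 157 in sdg26 aprf1 and 132 in efl2 efl4 in set 1 and 75.1 reads (normalized) in Col-0, 102 in fld, 69.3 in ld, 111 in sdg26 aprf1 and 55.7 in efl2 efl4 in set 2, a log2 difference of -0.98 ± 0.13. CBP60G had 409 reads (normalized) in Col-0, 425 in fld, 538 in ld, 444 in sdg26 aprf1 and 415 in efl2 efl4 in set 1 and 119.5 reads (normalized) in Col-0, 151 in fld, 171 in ld, 302 in sdg26 aprf1 and 232 in efl2 efl4 in set 2, a log2 difference of -1.26 ± 0.16. NPR4 moved less, from 782 reads (normalized) in Col-0, 767 in fld, 782 in ld, 757 in sdg26 aprf1 and 784 in efl2 efl4 in set 1 to 644 reads (normalized) in Col-0, 605 in fld, 588 in ld, 546 in sdg26 aprf1 and 514 in efl2 efl4 in set 2, a log2 difference of -0.42 ± 0.05.

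WRKY18, another WRKY factor, went the other way. It had 297 reads (normalized) in Col-0, 329 in fld, 564 in ld, 1029.9 in sdg26 aprf1 and 784 in efl2 efl4 in set 1 and 1350.4 reads (normalized) in Col-0, 1103 in fld, 1511 in ld, 2122 in sdg26 aprf1 and 1874 in efl2 efl4 in set 2. Every genotype was higher in set 2 and the sets did not overlap, at a log2 difference of 1.53 ± 0.13. ACD6, whose 10 values are given above, was higher in set 2 in each of the 5 genotypes, with overlap between sets, at 0.91 ± 0.09. WAK1 had 2192 reads (normalized) in Col-0, 1779 in fld, 1579 in ld, 1909.8 in sdg26 aprf1 and 1539.6 in efl2 efl4 in set 1 and 3965 reads (normalized) in Col-0, 3789.7 in fld, 2781 in ld, 3109.5 in sdg26 aprf1 and 3134 in efl2 efl4 in set 2, at 0.90 ± 0.05. PR1 was higher in set 2 in 4 of 5 genotypes, at 1.34 ± 0.56, and was not called. PR2, PR5, ANK and AT1G13470 were not called and had log2 differences of -0.26 ± 0.14, 0.01 ± 0.08, -0.16 ± 0.14 and -0.14 ± 0.19. ICS1, at -0.09 ± 0.07, and NPR1, at -0.02 ± 0.06, were also not called. EDS1 was called higher at 0.15 ± 0.04, and PAD4 lower at -0.27 ± 0.06.

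**Figure D3:**
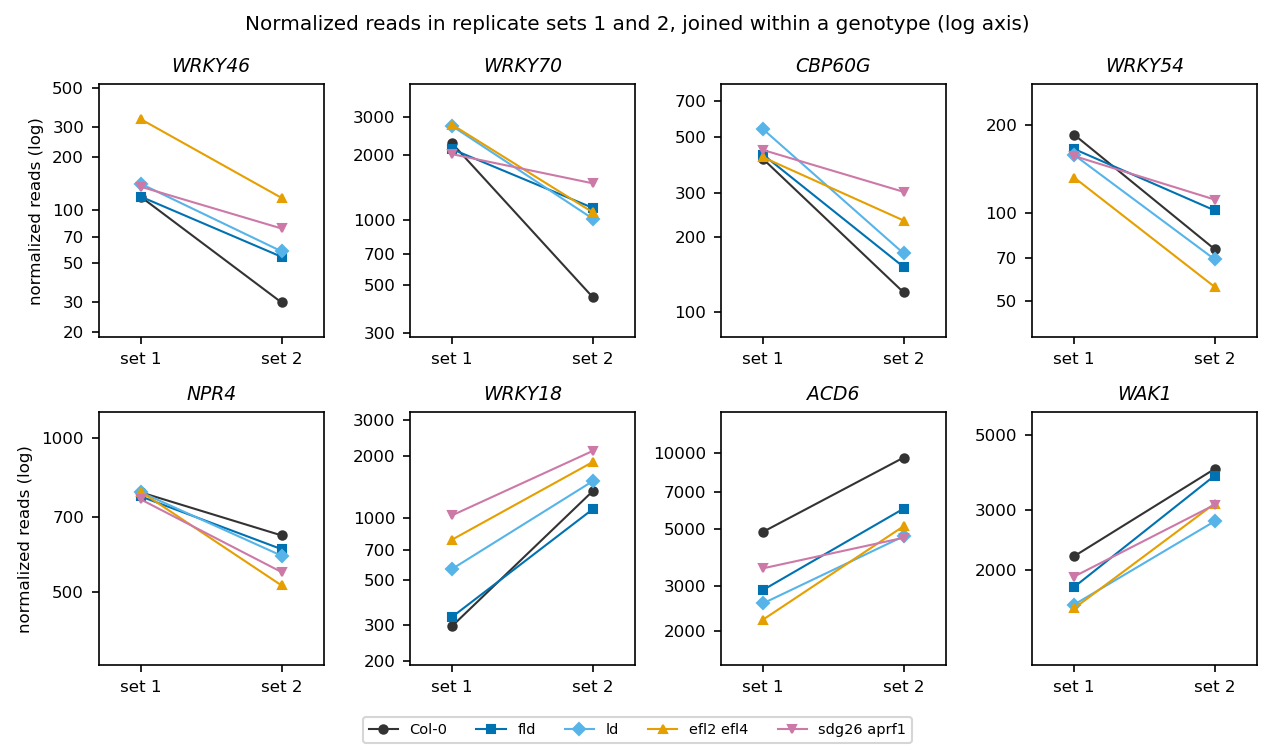
Normalized reads (log axis) of 8 salicylic acid genes in set 1 and set 2, the libraries of one genotype joined by a line. WRKY46, WRKY70, CBP60G, WRKY54 and NPR4 are lower in set 2 in all 5 genotypes, and WRKY18, ACD6 and WAK1 are higher in set 2 in all 5.

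The size of the set difference was not the same in each genotype. Of the 9 members called lower, the difference was smallest in sdg26 aprf1 for 6 and largest in Col-0 for 4, where the shares over the 3121 genes called lower were 30.4% and 27%. Of the 4 members called higher it was smallest in sdg26 aprf1 for 3, where 36.1% of the 2694 genes called higher had their smallest there. For WRKY70 the log2 difference was -2.37 in Col-0 and -0.45 in sdg26 aprf1. These are single differences of 2 libraries.

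**Figure D4:**
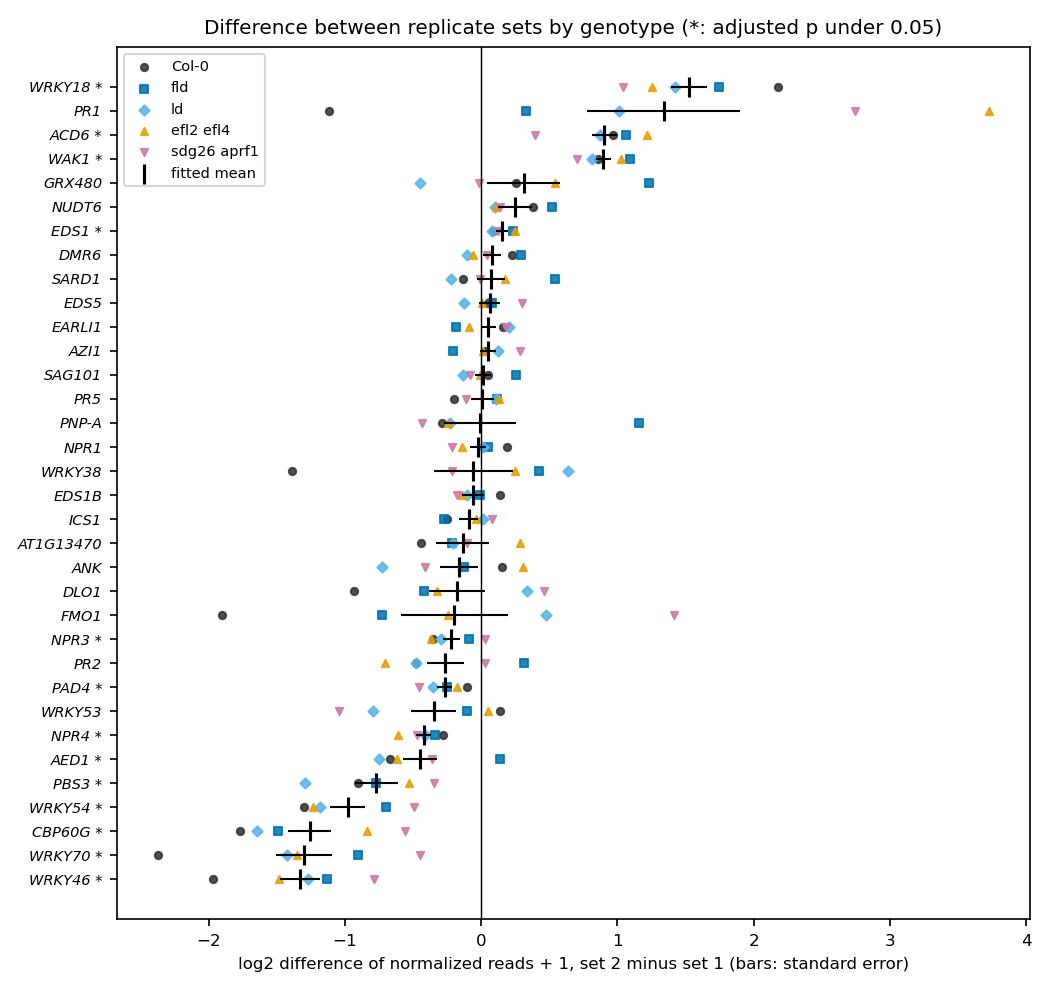
Log2 difference of normalized reads + 1 between set 2 and set 1 for the 34 members tested, one symbol a genotype, with the fitted mean (black) and its standard error; asterisks mark an adjusted p under 0.05. WRKY46 is lowest, at -1.33, and WRKY18 highest, at 1.53.

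Genes of other lists also differed between the sets, beside 15.6% of all genes called lower in set 2 and 13.4% called higher. All 6 of a list of rapidly induced stress genes (ZAT12, ZAT10, ERF6, ERF5, ERF4 and CML37) were called lower in set 2, their summed level was 2403 to 4444 normalized reads in the 5 libraries of set 1 and 1172 to 2115 in those of set 2, and none was at 0. In sdg26 aprf1, ZAT12, ZAT10 and ERF6 were higher in the set 2 library. Of the 4 clock genes, TOC1 and GI were called lower, and the summed level was 2898 to 3239 in set 1 and 2487 to 2574 in set 2. Of the 5 jasmonate genes, VSP2 and LOX2 were called lower and JAZ10 higher, at a sum of 61992 to 77625 in set 1 and 51946 to 63059 in set 2. The 5 markers of green tissue (1 called lower, 1 called higher) summed to 488620.0 to 535790.0 and 490330.0 to 545370.0 normalized reads, and the 6 markers of roots (1 called higher) to 39942 to 46388 and 44123 to 52008. These sums were mostly LOX2 for jasmonate, TOC1 for the clock, RBCS1A and RCA for green tissue and PYK10 for roots. LOX2 alone had 57064 to 69992 normalized reads in set 1. Those 4 sums therefore say little of the other genes in their lists. The part of these lists in the set differences of the salicylic acid genes was not tested.

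The other genes of the pathway were listed by function, 47 in all, of which 44 were tested. BSMT1, BON1 and DIR1 were the 3 with too few reads. BON1 lies wholly within AT5G61910 on the same strand, and DIR1 wholly within AT5G48480 on the opposite strand. Reads of these pairs may not be separable, so the low counts of BON1 and DIR1 do not show that they were unexpressed. The part of the overlap in these counts was not tested. By limma, 1 of the 44 was called in each of ld and efl2 efl4 and 0 in fld and sdg26 aprf1, where 1 gene (fld) and 6 genes (sdg26 aprf1) had an unadjusted p under 0.05 and where edgeR and DESeq2 also called 0. LURP1, a gene induced late after infection with an oomycete, had 2358 and 2699 reads (normalized) in Col-0, 1384 and 1650.2 in fld, 1048 and 1011 in ld, 1359 and 1387 in sdg26 aprf1 and 1337 and 1699 in efl2 efl4. All 8 mutant libraries lay below both Col-0 libraries, with log2 fold changes of -0.74 ± 0.13 in fld, -1.30 ± 0.10 in ld, -0.88 ± 0.11 in sdg26 aprf1 and -0.75 ± 0.15 in efl2 efl4, and the call was in ld. AZI3, a relative of AZI1, had 164 and 141 reads (normalized) in Col-0, 226 and 170.1 in fld, 197 and 175 in ld, 203 and 194 in sdg26 aprf1 and 450.1 and 405 in efl2 efl4. All 8 mutant libraries lay above both Col-0 libraries and the efl2 efl4 libraries above all others, with log2 fold changes of 0.36 ± 0.19 in fld, 0.28 ± 0.15 in ld, 0.38 ± 0.15 in sdg26 aprf1 and 1.48 ± 0.14 in efl2 efl4, and the call was in efl2 efl4. The counts of these genes called in ld, efl2 efl4 and sdg26 aprf1 changed with some of the libraries left out. The share of all genes called in those fits is not given here.

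Between the sets, 20 of these 44 genes passed an adjusted p of 0.05, 8 lower and 12 higher in set 2, beside 29% of all genes. The 5 largest set differences were those of WRKY40, at -1.60 ± 0.12, PLP2, a patatin-like lipase, at 1.46 ± 0.09, BAP1, at -1.01 ± 0.37 and not called, WRKY33, at -0.90 ± 0.12, and GRXS13, a glutaredoxin, at 0.71 ± 0.14. WRKY40 had 527 reads (normalized) in Col-0, 704 in fld, 997 in ld, 817 in sdg26 aprf1 and 702 in efl2 efl4 in set 1 and 141 reads (normalized) in Col-0, 279 in fld, 239 in ld, 376 in sdg26 aprf1 and 232 in efl2 efl4 in set 2. PLP2 had 84.0 reads (normalized) in Col-0, 70.6 in fld, 71.6 in ld, 59.4 in sdg26 aprf1 and 30.9 in efl2 efl4 in set 1 and 249.9 reads (normalized) in Col-0, 169 in fld, 182 in ld, 192 in sdg26 aprf1 and 86.6 in efl2 efl4 in set 2. WRKY40, a relative of WRKY18, was lower in every genotype of set 2, while WRKY18 was higher in every one.

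All 37 identifiers matched TAIR10.1, and 30 genes had exons in which each stretch of 50 bases, the read length, occurs once in the genome. PNP-A (93.8%) and WAK1 (92.6%) had the lowest shares of such stretches, and their levels are less certain. EDS5, SARD1, EDS1B, NPR1, WRKY53, ANK and EARLI1 overlap an annotated gene on the opposite strand, so reads of the pair may not be separable.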

How the data were processed

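RNA from 10 libraries (5 genotypes, 2 replicates each) was sequenced as single-end reads of 50 bases. Per the labels and the study's methods, the authors aligned reads to TAIR10 with HISAT2, counted reads on exons with featureCounts and normalized with edgeR; the annotation and strand setting are not given in the sources used here. The deposited values are normalized reads in 4 tables (a signal, not raw counts), each holding a mutant and the same 2 Col-0 libraries. Dividing by the size of 1 read and rounding gave whole reads for 99.0% to 100% of values within 0.1, and Col-0 reads were identical in the 4 tables. These reads were rescaled together by TMM for levels across all 10 libraries and used for count tests; fold changes in the mutants used each table as deposited.

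Genes averaging 10 normalized reads or more were tested with limma 3.58.1 (R 4.3.3) on log2(value + 1) in each mutant (calls: log2 change of at least 1 and P under 0.01) and, on the common scale, between replicate sets with genotype as a term and among mutants (Benjamini-Hochberg adjusted p of 0.05, over all genes tested). The study's own method is edgeR on counts, and limma was used since the deposited values are normalized; edgeR 4.0.16, DESeq2 1.42.0, a pseudocount of 5, filters of 0 and 50, the replicate block and leaving out libraries were alternatives. No exact test of 2 against 2 libraries can go below a two-sided p of 0.333. Replicate differences correlated between every pair of genotypes (0.371 to 0.611 over 10 pairs), so the numbers pair the libraries. Replicates of a genotype differed beyond counting noise (chi-square per degree of freedom 14.9 to 20.6). They are called independent in the study, but p-values measure only the spread between these libraries. In limma the variance of each gene, used for p-values and standard errors, is drawn toward a trend over the genes tested.

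The members and lists were chosen with earlier results of these data known. Named with all values were members called in a mutant, the 8 largest set differences and 7 fixed genes of the pathway (PR1, PR2, PR5, ICS1, EDS1, PAD4 and NPR1), with others where the text describes them. The tests were checked on simulated counts. Those simulated for the mutant tests held no difference between replicate sets, so the check does not cover that case. Sequences and coordinates are from RefSeq TAIR10.1. One upstream sequence is not reported here.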

Additional observations from a re-analysis of the deposited data

Results flagged for a closer look

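EDS1B, the tandem copy of EDS1, had a log2 fold change of 0.11 in fld, where both libraries lay above both Col-0 libraries, and of -0.39 in sdg26 aprf1, where both lay below. EDS1B is one of the 5 members with an unadjusted p under 0.05 in the limma test of any difference among the 4 mutants, and it did not pass an adjusted p of 0.05 there. The difference between fld and sdg26 aprf1 alone was not tested. EDS1B lies beside EDS1 and overlaps another gene on the opposite strand.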

How the results depend on the processing

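Among values of single genes under alternatives, 1045 kept their direction and side of the threshold, 29 passed a threshold not passed in the reported fit and 25 lost it. Another 63 changed sign, none of them called in either fit, 56 of these with 1 library left out (31 of them a Col-0 library), 5 with both libraries of a genotype left out and 2 with edgeR or DESeq2 (PR1 in sdg26 aprf1). The mutant fits with 1 library left out held no replicate term, so the replicate sets were then unbalanced. The counts of members called in fld, ld, efl2 efl4 and sdg26 aprf1 (3, 4, 2 and 2) were 0 in each at an adjusted p of 0.05 by limma. A filter at a mean of 50 gave 1 in efl2 efl4 and 1 in sdg26 aprf1, and DESeq2 gave 4 in efl2 efl4. With the replicate block, the pairing term, the counts were 7 in ld and 7 in efl2 efl4, and with the block and an adjusted p of 0.05 they were 5, 12, 14 and 0. At the main thresholds the block moved neither of the other counts of members (4 in fld, 3 in sdg26 aprf1) by over 1.5 times. Leaving out 1 library changed the counts in efl2 efl4 and sdg26 aprf1, where the lone library is assumed to vary like the others. The share of all genes called in those fits is not given here. For the other pathway genes the counts were 0, 1, 1 and 0 in fld, ld, efl2 efl4 and sdg26 aprf1. An adjusted p of 0.05 gave 0 in ld and 0 in efl2 efl4. The block gave 3 in efl2 efl4 and 1 in sdg26 aprf1 (0.844% and 0.698% of all genes). The block with an adjusted p gave 8 in efl2 efl4, 5 in fld and 4 in ld (2.86%, 2.25% and 3.38% of all genes). DESeq2 gave 2 and all 10 libraries 2 in efl2 efl4. Leaving out 1 library changed the counts in ld, efl2 efl4 and sdg26 aprf1. Between the sets, the 13 members ranged from 10 to 13, and the 20 other genes became 13 without the genotype term. Among the mutants, the count of 0 became 1 with DESeq2 and 5 with the replicate block. The cause was not tested. Each mutant fit has 4 libraries and ALD1, NIMIN1 and WRKY62 averaged under 10 normalized reads over all libraries.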
